A study of Homo sapiens with 95 samples.

Results

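The genes described here lie on the short arm of human chromosome 9 (9p), on both sides of CDKN2A, the locus that encodes the cell-cycle inhibitors p16INK4a and p14ARF. The list held 51 genes of the arm, without CDKN2A itself. The genes were chosen by their expression, as log2 CPM (UMI counts scaled to a common library size), with earlier results of these data known, after the arm had stood lower in cells carrying a CDKN2A knockout. Of the 51 genes, 49 had a mean count over 1 per well and are called measured genes below. ACER2, at a mean count of 0.0947, and RGP1, at 0.779, lay below that limit, and VLDLR, at 1.84, was the measured gene closest above it. The measured genes were 49 of the 11365 genes tested in the series.

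The arm is known in tumours of the lung and of many other tissues for losses centred on CDKN2A, which often take neighbouring genes with them. A gene's messenger RNA level tends to follow the number of its copies, so a loss or gain of a chromosome segment is usually seen as a modest shift of many adjacent genes, with large differences among them in size. The proteins encoded on 9p have no function in common. They include a mitotic kinase, subunits of chromatin complexes, chaperones, parts of the membrane traffic machinery and enzymes of sugar and lipid metabolism.

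All samples were AALE cells, an immortalized human bronchial epithelial line. HcRed cells carried an empty vector with the reporter HcRed, and NRF2, FGFR1, NRG1 and PIK3CA cells overexpressed the named gene. GFP cells received the pSpCas9-EGFP plasmid (PX458) with no guide RNA, and FAT1 and CDKN2A cells were CRISPR knockouts of the named gene. Each of these 8 populations was exposed to DMSO, to CSC at 24 µg/ml, to BaP at 173 µM or to NNK at 490 µM. BaP is benzo[a]pyrene, a polycyclic aromatic hydrocarbon, CSC is cigarette smoke condensate and NNK is a tobacco-specific nitrosamine. The labels do not say whether a knockout population was 1 clone or a mixture, nor for how long the cells were exposed.

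Messenger RNA was measured by 3′ digital gene expression (3′DGE), which counts unique molecular identifiers (UMIs) near the 3′ end of transcripts. The 95 wells held 692446 to 1895735 UMIs each, with a median of 1291258. Wells of a group with 2-digit numbers that share their first digit were summed, which left 88 samples in 32 groups. Such wells were taken to repeat the same culture, which the labels do not state. CDKN2A cells had 3 samples under DMSO, 1 under CSC (3 wells), 2 under BaP and 2 under NNK (1 of them 2 wells), and GFP cells had 3 under each. The paper calls the replicates of a condition biological, but nothing in the labels says that wells were separate cultures. The p-values therefore measure the spread between these samples, which may be technical. Epithelial markers (KRT5, KRT17, KRT19, KRT8, KRT18, EPCAM and CDH1) were counted in all 88 samples, CD3E and VWF in none, PTPRC in 4, PDGFRB in 1, COL1A1 in 56 at up to 2.43 CPM and PECAM1 in 71 at up to 3.77 CPM. Each plate row held a single chemical, and CDKN2A cells always sat in the last 3 columns of alternate rows, so population and plate position cannot be told apart. NRG1 NNK replicate 2 stood apart from the other NRG1 samples in several genes of the list, with 449 CPM for TOMM5 and 47.1 CPM for NFIB. In bulk samples, fewer cells of a kind and less RNA per cell cannot be told apart.

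CDKN2A itself checks the labels of the knockout only in part. Its transcript was at 13.5 CPM under CSC, 19.1 and 26.0 under BaP and 18.7 and 21.6 under NNK in CDKN2A cells. In GFP cells it ran from 23.5 to 42.0, from 25.4 to 35.7 and from 24.6 to 28.5 CPM, so only the BaP samples overlapped. Under DMSO it ran from 18.0 to 20.3 CPM in CDKN2A, from 33.7 to 38.7 in GFP and from 19.3 to 21.6 in HcRed cells, where the last range overlapped that of CDKN2A cells. The log2 difference was -1.12 under CSC (limma-voom, adjusted p = 0.00478), where the single CDKN2A sample was assumed to vary like the other groups. It was -0.39 under BaP (adjusted p = 0.425) and -0.39 under NNK (adjusted p = 0.330), and -0.63 over the 3 chemicals (adjusted p = 0.000882). Among the 8 populations, CDKN2A cells had the lowest mean of this transcript under DMSO and CSC, but not under BaP or NNK. Under NNK the mean was 16.9 CPM in NRF2 cells and 20.1 in CDKN2A cells. Under BaP it was 19.8 CPM in PIK3CA cells and 22.5 in CDKN2A cells. The 59 exposed samples of the 7 other populations ran from 13.3 to 42.0 CPM and enclosed all 5 exposed CDKN2A samples. A counted transcript does not show whether it encodes an intact protein.

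The level of the arm was first summarised as the mean log2 CPM of the 49 measured genes in each sample. It was 3.66 in CDKN2A cells under DMSO (SD 0.10, n = 3), 3.74 under CSC (n = 1), 3.75 under BaP (SD 0.02, n = 2) and 3.60 under NNK (SD 0.06, n = 2). In GFP cells it was 4.32, 4.33, 4.32 and 4.33 under the same 4 chemicals, with SDs from 0.02 to 0.05 (n = 3 each), and in HcRed cells 4.28, 4.15, 4.22 and 4.15. The means of the 7 other populations ran from 4.12 in NRF2 cells under CSC to 4.39 in FAT1 cells under BaP, and no sample of theirs was below 4.04. The highest CDKN2A sample was 3.77, so the groups did not overlap under any chemical. This mean is a description, since the arm was chosen for its level in CDKN2A cells.

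**Figure D1:**
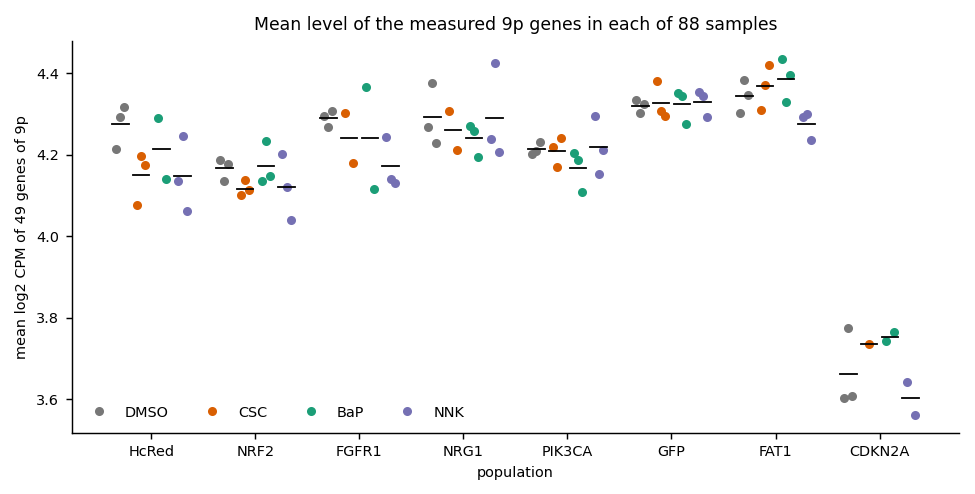
Mean log2 CPM of the 49 measured 9p genes (vertical axis) in each of 88 samples, by population (horizontal axis) and chemical (colour), with bars for group means. The 8 CDKN2A samples lie at or below 3.77 and all other samples at or above 4.04.

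Differences are given below as log2 of the level in the first group over the second. Under DMSO, which is taken to be the comparison that picked out the arm, CDKN2A cells were lower than GFP cells in 44 of the 49 measured genes, with a median log2 difference of -0.85. This is a description, with no test. The samples under CSC, BaP and NNK were other wells and were tested, although the list was made with all results known and these wells are not independent evidence of the direction.

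Over the mean of CSC, BaP and NNK, 32 of the 49 measured genes were lower in CDKN2A than in GFP cells and none was higher (limma-voom, adjusted p under 0.05 over all genes). The background was 15.4% of all genes lower and 15.6% higher. At an unadjusted p under 0.05, 35 were lower and 0 higher, and edgeR and DESeq2 called 33 and 28 lower and 0 higher. Fewer genes were called lower with only the wells with 1-digit numbers, as described under the dependence on processing. The median log2 difference of the 49 genes was -0.75, against -0.01 for all genes tested, and 42 of the 49 lay below 0. By chemical, the calls were 18 genes lower under CSC (background 5.60%, median -0.73), 14 under BaP (5.49%, median -0.66) and 23 under NNK (7.92%, median -0.83). CDKN2A cells had 1 sample under CSC, so the CSC calls take its spread from the other groups of the fit and have no replicate check of their own. The counts rested on few samples: under BaP the count was 5 without CDKN2A replicate 1 and 7 without replicate 3, and under NNK it was 6 without the summed CDKN2A replicate 2 and 14 without GFP replicate 3. The size of the difference was compared between chemicals, a test added after the data were seen. No measured gene differed after adjustment (limma-voom). At an unadjusted p under 0.05 there were 2 for BaP against CSC, 0 for NNK against CSC and 3 for NNK against BaP, where 4.12%, 4.51% and 4.99% of all genes were below it.

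Separation of single samples was also examined. In 21 of the 49 genes, every CDKN2A sample was below every GFP sample within each of CSC, BaP and NNK (background 8.63% of genes), and in 18 the same was true against HcRed cells (8.09%). Against GFP cells 18 genes were also apart when DMSO, which picked out the arm, was added (6.56%). In 7 genes, B4GALT1, UBAP2, NUDT2, MELK, ZCCHC7, GRHPR and TOMM5, the 5 CDKN2A samples exposed to a chemical were all below the 59 exposed samples of the 7 other populations, which held for 0.537% of all genes. All 7 lie on the centromeric side of CDKN2A, which held 31 of the 49 measured genes.

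Of the cell division and DNA repair genes 3 of 4 were lower, with a median of -0.76, and they included the gene of the list with the largest difference. MELK (chr9:36572859-36677680 on hg19, plus strand), a kinase whose expression peaks in mitosis, was at 33.2 CPM in CDKN2A cells under CSC, 35.6 and 35.7 under BaP, and 31.1 and 47.4 under NNK. The 9 exposed GFP samples ran from 126 to 156 CPM with a median of 145, and the 8 HcRed samples from 85.3 to 123 with a median of 103. No CDKN2A sample overlapped those of any other population, whose lowest was 65.9 CPM. The log2 difference was -2.04 against GFP (SE 0.12, adjusted p = 5.82e-32) and -1.61 against HcRed cells, and MELK was itself higher in GFP than in HcRed cells by 0.43. HAUS6, a subunit of the augmin complex of the spindle, was lower by -0.66 against GFP cells and -0.59 against HcRed cells. APTX (chr9:32886599-33025128, minus strand), which repairs abortive ends of broken DNA, is the measured gene of the list nearest to CDKN2A on the centromeric side, 10.9 Mb away. It was at 68.0 CPM under CSC, 73.8 and 76.3 under BaP and 72.6 and 87.4 under NNK in CDKN2A cells. The GFP samples ran from 74.4 to 107 CPM with a median of 101, so the ranges overlapped, and the log2 difference was -0.38 (SE 0.10, adjusted p = 0.00207). With only the wells with 1-digit numbers it was -0.30 (adjusted p = 0.168) and the call was lost. FANCG, of the Fanconi anaemia complex, was at -0.86 against GFP cells and did not pass (adjusted p = 0.0538). Against HcRed cells it was called lower, at -0.92.

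The chromatin and transcription genes had 7 of 11 lower and a median of -0.94. POLR1E (chr9:37485945-37503694, plus strand), a subunit of RNA polymerase I, was at 5.59 CPM under CSC, 8.68 and 3.57 under BaP, and 2.94 and 3.74 under NNK in CDKN2A cells. GFP samples ran from 6.71 to 22.6 CPM with a median of 12.8, so the ranges overlapped at 1 BaP sample. Its log2 difference was -1.39 (SE 0.29, adjusted p = 4.69e-05), a call lost with only the wells with 1-digit numbers, at -1.08 (adjusted p = 0.166). PSIP1, a chromatin tether also named LEDGF, was lower by -1.22, NFIB, a nuclear factor I transcription factor, by -1.19, and NFX1 by -0.94. SMARCA2, an ATPase of SWI/SNF remodelling complexes, and UHRF2, a ubiquitin ligase that binds modified DNA, were lower by -0.90 and -1.25 against GFP cells but differed from HcRed cells by only -0.45 and -0.04, of which the first passed the test. ZBTB5, a zinc finger protein with a mean of 2.48 counts a well, was lower by -1.38. KDM4C, a histone demethylase, was at -0.75, MLLT3 at -0.49 and SNAPC3 at -0.18 against GFP cells, none past the test. Against HcRed cells SNAPC3 was called lower, at -1.06. CREB3 (chr9:35732595-35736996, plus strand), a membrane-bound transcription factor, was at 21.4 CPM under CSC, 19.96 and 22.6 under BaP and 19.6 and 13.7 under NNK in CDKN2A cells. GFP samples ran from 9.95 to 24.5 CPM and enclosed all of them (log2 difference 0.24, SE 0.18, adjusted p = 0.349). CREB3 and GBA2, and SNAPC3 and PSIP1, overlap on opposite strands, and whether counting used the strand is not given in the sources used here, so the values of these 4 genes are uncertain.

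Of the protein folding and turnover genes, 7 of 10 were lower, with a median of -0.65. BAG1 (chr9:33247818-33264718, minus strand), a nucleotide exchange factor of Hsp70, was at 6.24 CPM under CSC, 8.68 and 3.57 under BaP and 4.25 and 2.496 under NNK. The GFP samples ran from 8.94 to 21.2 CPM with a median of 15.6, all above the CDKN2A samples, while the lowest HcRed sample, 6.06 CPM, lay within the CDKN2A range. The log2 difference was -1.51 against GFP (SE 0.26, adjusted p = 8.09e-07) and -0.88 against HcRed cells. KLHL9 (chr9:21329664-21335403, minus strand), an adaptor of CUL3 ubiquitin ligases, is the measured gene of the list nearest to CDKN2A on the telomeric side, 0.638 Mb away. It was at 8.87 CPM under CSC, 8.68 and 7.15 under BaP and 7.85 and 12.5 under NNK in CDKN2A cells, within the GFP range of 6.71 to 18.1. Its log2 difference of -0.58 (SE 0.23, adjusted p = 0.0387) was lost in 10 of 14 fits without 1 sample, with adjusted p from 0.0550 to 0.316, and the difference was -0.25 against HcRed cells. CHMP5, of the ESCRT-III complex, was lower by -0.73, UBAP2 by -0.94 and DCAF12, a CUL4 adaptor, by -0.95. DNAJA1, an Hsp40 chaperone, was lower by -0.22 and ERMP1 by -1.21. Against HcRed cells ERMP1 was at -0.26, which did not pass. VCP, the p97 ATPase, at -0.17, UBAP1, of ESCRT-I, at -0.15, and CDC37L1, an Hsp90 partner, at 0.10 did not pass.

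In transport, membrane traffic and cytoskeleton 7 of 8 genes were lower, with a median of -0.82. TOMM5, a small subunit of the mitochondrial import pore and the gene of the list with the most counts, was at 323 CPM under CSC, 368 and 390 under BaP and 358 and 377 under NNK in CDKN2A cells. The 9 GFP samples ran from 557 to 749 CPM and the 59 exposed samples of the other populations from 449. The log2 difference was -0.92 (SE 0.08, adjusted p = 6.02e-20), and -0.99 against HcRed cells. TLN1, the integrin adaptor talin, was lower by -1.35, DENND4C, which activates Rab proteins, by -0.93, CLTA, a clathrin light chain, by -0.84, DCTN3, of dynactin, by -0.80, RANBP6, of the importin family, by -0.62 and STOML2, of the mitochondrial inner membrane, by -0.56. The exception was TESK1 (chr9:35605259-35610038, plus strand), a kinase that acts on cofilin. It was at 2.63 CPM under CSC, 3.47 and 3.57 under BaP, and 2.29 and 0 under NNK in CDKN2A cells, against 0 to 4.31 in GFP cells. Its log2 difference of 0.47 (SE 0.46, adjusted p = 0.487), the highest of the 49, rested on a mean of 2.09 counts a well.

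The metabolism and lipid handling genes had 5 of 10 lower, with a median of -0.70. GRHPR, which reduces glyoxylate, was lower by -1.25, PIGO, of GPI anchor synthesis, by -1.38, NUDT2, which cleaves diadenosine tetraphosphate, by -0.86, PLIN2, a coat protein of lipid droplets, by -0.85 and B4GALT1, a Golgi galactosyltransferase, by -0.74. Against HcRed cells PLIN2 was at 0.68, which did not pass, and PLIN2 was higher in GFP than in HcRed cells by 1.54. AK3 (-0.38), GALT (-0.66), GBA2 (-0.32), GNE (0.03) and VLDLR (0.02) did not pass against GFP cells. Against HcRed cells GALT was called lower, at -0.95. VLDLR, a lipoprotein receptor, was higher than in HcRed cells both in CDKN2A cells, by 1.88, and in GFP cells, by 1.86, at means of 3.1 and 2.5 CPM. GNE overlaps CLTA on the other strand, with the uncertainty given above.

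ZCCHC7 (chr9:37120571-37358146, plus strand), a partner of the nuclear RNA exosome, led the 4 RNA processing genes. It was at 9.53 CPM under CSC, 13.0 and 11.9 under BaP and 10.8 and 15.0 under NNK in CDKN2A cells, below all GFP samples, which ran from 18.8 to 49.2 CPM with a median of 35.7. The log2 difference was -1.62 (SE 0.19, adjusted p = 5.91e-13) and -1.58 against HcRed cells. SMU1, a splicing factor, was lower by -0.57. The ribosome biogenesis genes RCL1 and NOL6 were not, at 0.17 and 0.11. RCL1 (chr9:4792944-4885917, plus strand) was at 8.55 CPM under CSC, 9.55 and 13.1 under BaP and 7.19 and 11.2 under NNK in CDKN2A cells, and all but 1 of these fell within the GFP range of 5.44 to 12.5 (SE 0.23, adjusted p = 0.631).

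Of the signalling genes, SHB (chr9:37915895-38069224, minus strand), an SH2 adaptor of growth factor receptors, was the listed gene nearest the centromere. It was at 0.329 CPM under CSC, 0.868 and 2.38 under BaP and 1.31 and 0 under NNK in CDKN2A cells, against 0 to 7.44 CPM with a median of 4.31 in GFP cells. The groups overlapped, and the log2 difference of -1.73 (SE 0.53, adjusted p = 0.0073) was lost without the single CDKN2A sample under CSC, at -0.96 (adjusted p = 0.252), and with only the wells with 1-digit numbers, at -1.40 (adjusted p = 0.219). JAK2, the cytokine receptor kinase, was at -0.75 (adjusted p = 0.226) with 2.19 counts a well.

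**Figure D2:**
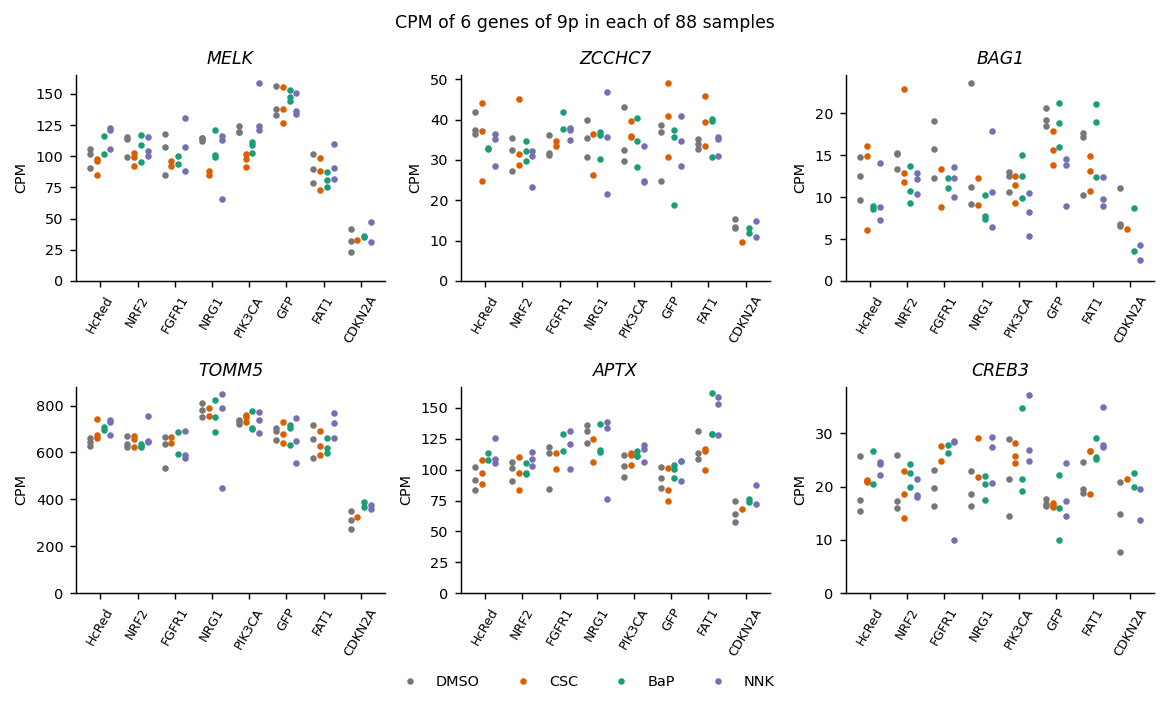
CPM (vertical axis, from 0) of 6 genes in each of 88 samples, by population and chemical (colour). CDKN2A samples lie below all others for MELK (at most 47.4 CPM against at least 65.9 in exposed cells), ZCCHC7 and TOMM5, and overlap the others for BAG1, APTX and CREB3.

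Whether the shift was even along the arm was addressed in 3 segments by position on hg19. These were the telomeric segment (below 10 Mb, 10 measured genes from SMARCA2 to KDM4C), the middle segment (from 10 Mb to CDKN2A, 8 genes from NFIB to KLHL9) and the centromeric segment (from CDKN2A to 39 Mb, 31 genes from APTX to SHB). Against GFP cells, over CSC, BaP and NNK, the median differences were -0.69, -0.76 and -0.84 in this order, and 4 of 10, 6 of 8 and 22 of 31 genes were called lower. The SD between replicates of a segment's mean level was 0.11, 0.12 and 0.06. The telomeric median was -0.46 without CDKN2A BaP replicate 1 the middle one -0.56 without the summed CDKN2A NNK replicate 2, and the centromeric one -0.69 without the CDKN2A CSC sample. By chemical the telomeric median was -0.51, -0.42 and -0.86 under CSC, BaP and NNK, and the centromeric one -0.87, -0.71 and -0.83.

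The picture against HcRed cells, which share the CDKN2A samples, was not even. The medians there were -0.14 in the telomeric, -0.63 in the middle and -0.86 in the centromeric segment, with 2, 4 and 23 genes lower and 1 telomeric gene, VLDLR, higher (background 13.1% lower and 13.5% higher). Over the 49 genes the median was -0.59 and 29 were lower. The controls themselves differed along the arm. GFP cells exceeded HcRed cells by a median of 0.45 in the telomeric segment, where all 10 genes lay above 0 and 4 were called higher, but by 0.08 in the centromeric segment (background 10.0% higher and 9.76% lower). The telomeric difference of CDKN2A cells therefore depended on the control, whereas the centromeric one was -0.84 and -0.86 against the 2 controls.

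Among the measured genes, 24 had a mean count of 20 or more, a split made after the data were seen. Of these, 21 were lower than in GFP cells and 21 lower than in HcRed cells, with medians of -0.82 and -0.69, and of the 25 with fewer counts 11 and 8 were. In the centromeric segment 16 of the 18 genes with 20 or more counts were lower against each control. Only 3 telomeric and 3 middle genes had as many counts, so the share of genes called by segment cannot be told apart from count depth. The share of all genes called at this depth was not computed, so the numbers of called genes by depth have no background here. The differences varied from gene to gene. Their SD over the 49 genes was 0.55 against a median SE of 0.23, and in the centromeric segment they ran from -2.04 (MELK) to 0.47 (TESK1). The upper end rested on few counts (SE 0.46) and was -0.33 with only the wells with 1-digit numbers. Next to each other among the listed genes of that segment lay STOML2, lower by -0.56, TESK1 and TLN1, lower by -1.35, and then CREB3. Unlisted measured genes lie between some of them. Across the 49 genes, the differences under DMSO and those under the 3 chemicals, which come from separate wells, correlated at r = 0.74 (Spearman 0.70) and had the same sign in 45. Over all genes tested the same r was 0.68, and the sign was the same in 8531 of 11365. In 41 of the 49 genes both differences lay below 0, and DMSO is taken to be the comparison that picked out the arm. Genes are not independent replicates, and these are descriptions.

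**Figure D3:**
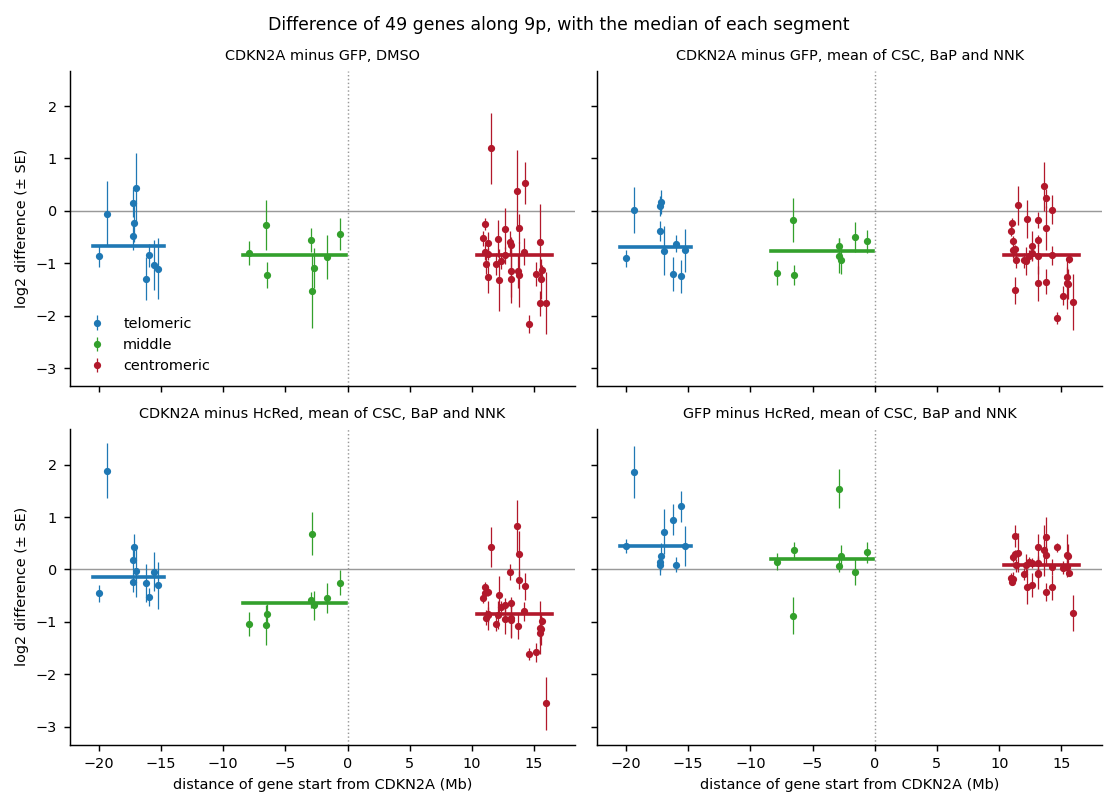
Log2 difference ± SE of the 49 measured genes (vertical axis) against the distance of each gene's start from CDKN2A in Mb (horizontal axis), in 4 comparisons, with thick lines for segment medians. Against GFP cells the lines lie at -0.69, -0.76 and -0.84, against HcRed cells at -0.14, -0.63 and -0.86, and GFP cells lie 0.45 above HcRed cells in the telomeric segment.

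A further 69 measured genes of the arm, below 39 Mb, were not on the list. Of these, 26 were lower and 3 higher in CDKN2A than in GFP cells, with a median of -0.48, and against HcRed cells 24 were lower and 2 higher, with a median of -0.38. By segment their medians against GFP cells were 0.12 (17 genes, 2 lower and 1 higher), -0.61 (12 genes, 7 lower) and -0.75 (40 genes, 17 lower and 2 higher), and against HcRed cells 0.18, -0.21 and -0.56. In the telomeric segment the listed and unlisted genes thus had medians of opposite sign. The list itself holds no gene between KLHL9 and APTX. In that interval lie MTAP and CDKN2B, the protein-coding genes on either side of CDKN2A. MTAP, which salvages methylthioadenosine, ran from 53.6 to 74.9 CPM in the 5 exposed CDKN2A samples, below the 82.3 to 99.9 CPM of GFP and the 89.9 to 114 CPM of HcRed cells (log2 differences -0.42 and -0.63, adjusted p = 0.000325 and 1.06e-07). CDKN2B, the inhibitor p15, ran from 0 to 7.15 CPM, against 6.09 to 11.7 in GFP cells (-1.21, adjusted p = 0.00267) and 4.69 to 8.80 in HcRed cells (-0.81, adjusted p = 0.0784). CDKN2B overlaps the antisense transcript CDKN2B-AS1, from which its counts may not be separable.

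Past the short arm the result again depended on the control. Of the 331 measured genes of chromosome 9 past 39 Mb, 100 (30.2%, background 15.4%) were lower and 11 higher in CDKN2A than in GFP cells, with a median of -0.36. Against HcRed cells 49 (14.8%, near the background of 13.1%) were lower and 19 higher, with a median of -0.12. GFP cells exceeded HcRed cells by 0.25 there, with 75 genes higher. In windows of all measured genes, the median against GFP cells was -0.19 from the telomere to 10 Mb, -0.65 from 10 Mb to CDKN2A, -0.93 from CDKN2A to 30 Mb, -0.50 from 30 to 35 Mb and -0.92 from 35 to 39 Mb. It then rose in steps from -0.66 just past 39 Mb to -0.23 in the last window. Against HcRed cells the lowest window was that from 35 to 39 Mb, at -0.99, and the first past 39 Mb was at -0.25. Over whole chromosomes the median of chromosome 9 was -0.43 against GFP cells and that of chromosome 13 was also -0.43, while chromosomes 4 and 22 were at 0.47 and 0.41. The all-gene median lay at -0.01, so these chromosome medians moved in both directions.

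**Figure D4:**
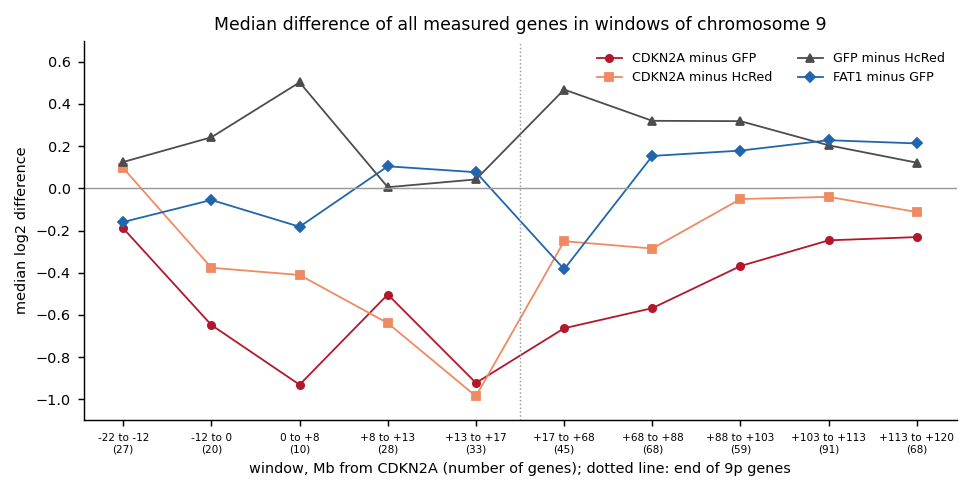
Median log2 difference (vertical axis) over all measured genes in 10 windows along chromosome 9, named by their distance from CDKN2A in Mb with the number of genes (horizontal axis), for 4 comparisons averaged over CSC, BaP and NNK. In the last window of 9p CDKN2A cells are at -0.92 against GFP and -0.99 against HcRed cells.

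The other populations showed no shift of this size. In each population and under each of the 4 chemicals, the median of the 49 genes against HcRed cells lay between -0.06 and 0.15, other than in CDKN2A cells, where it was -0.74 under DMSO, -0.51 under CSC, -0.59 under BaP and -0.59 under NNK. FAT1 cells, the other knockout, had 4 genes lower (SMARCA2 -0.56, VLDLR -1.26, UHRF2 -0.71 and MELK -0.72) and 5 higher (SNAPC3 1.29, DENND4C 0.59, APTX 0.46, NUDT2 0.40 and CREB3 0.63) than GFP cells, with a median of -0.02 (background 13.8% lower and 12.5% higher). All 4 lower genes were also called higher in GFP than in HcRed cells, a comparison that shares the GFP samples. Against HcRed cells, NRF2 cells had 1 gene lower, MLLT3 at -0.91 (background 3.18%), NRG1 cells 1 higher, NOL6 at 1.16 (1.22%), and PIK3CA cells SMARCA2 lower at -0.47 (3.88%) and PLIN2 higher at 1.16 (4.81%). Each of these calls was lost in some fits without 1 sample. FGFR1 cells had none by limma-voom, edgeR or DESeq2, with 1 lower and 3 higher at an unadjusted p under 0.05 (background 3.64% in either direction).

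The chemicals were compared with DMSO over the mean of the 6 populations other than GFP and CDKN2A. CSC changed 4 of the 49 genes (background 5.31%), BaP 6 (9.90%) and NNK 2 (8.58%), and nothing particular to the arm is read from these counts. Without NRG1 NNK replicate 2, NNK changed 13 of the 49 genes and 19.3% of all genes. Only PLIN2 and NFIB were called under all 3 by limma-voom. PLIN2 (chr9:19108373-19149288, minus strand) ran from 0 to 7.49 CPM with a median of 1.55 in 18 DMSO samples. It ran from 0 to 7.16 (median 3.69) in 16 CSC samples, from 1.37 to 9.18 (median 4.80) in 16 BaP samples and from 0.863 to 6.63 (median 3.36) in 18 NNK samples. The ranges overlapped widely. The log2 differences were 0.95 (SE 0.28, adjusted p = 0.0212), 1.36 (SE 0.27, adjusted p = 0.000109) and 0.91 (SE 0.28, adjusted p = 0.0273). The CSC call was lost without HcRed DMSO replicate 1, NRF2 DMSO replicate 1 or HcRed CSC replicate 3, at 0.79 to 0.86, and the NNK call without any of 5 samples, at 0.75 to 0.85. The CSC call of PLIN2 was also lost with DESeq2 (adjusted p = 0.0627) and its NNK call with edgeR (adjusted p = 0.0709). DESeq2 called no measured gene higher under NNK.

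NFIB (chr9:14081842-14398982, minus strand) was the steadier of the pair. It ran from 18.1 to 51.6 CPM with a median of 31.9 under DMSO, from 15.0 to 30.1 (median 22.4) under CSC, from 14.9 to 26.3 (median 19.9) under BaP and from 12.9 to 47.1 (median 19.6) under NNK. Under BaP all but 2 of the 18 DMSO samples lay above the highest exposed one, and under NNK the highest was NRG1 replicate 2. The log2 differences were -0.59 (SE 0.10, adjusted p = 2.29e-06), -0.73 (SE 0.11, adjusted p = 2.46e-08) and -0.64 (SE 0.10, adjusted p = 9.36e-07), and no fit without 1 sample lost a call. In CDKN2A cells NFIB was at 18.6, 29.4 and 16.2 CPM under DMSO, 14.8 under CSC, 4.34 and 9.53 under BaP, and 12.4 and 9.98 under NNK. These values of a single population were not tested.

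The other calls were smaller. B4GALT1 was lower under CSC by -0.24 and under BaP by -0.39, with medians of 44.7 CPM under DMSO, 36.6 under CSC and 31.6 under BaP. MELK was lower under CSC by -0.19 (adjusted p = 0.0441), a call lost in 23 of 34 fits without 1 sample, and the CSC call of B4GALT1 was lost in 13. Under BaP, CLTA was higher by 0.47 (medians 34.8 and 46.4 CPM), CHMP5 higher by 0.20 (344 and 391 CPM) and VLDLR lower by -1.45, from a median of 1.98 CPM to 0.

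**Figure D5:**
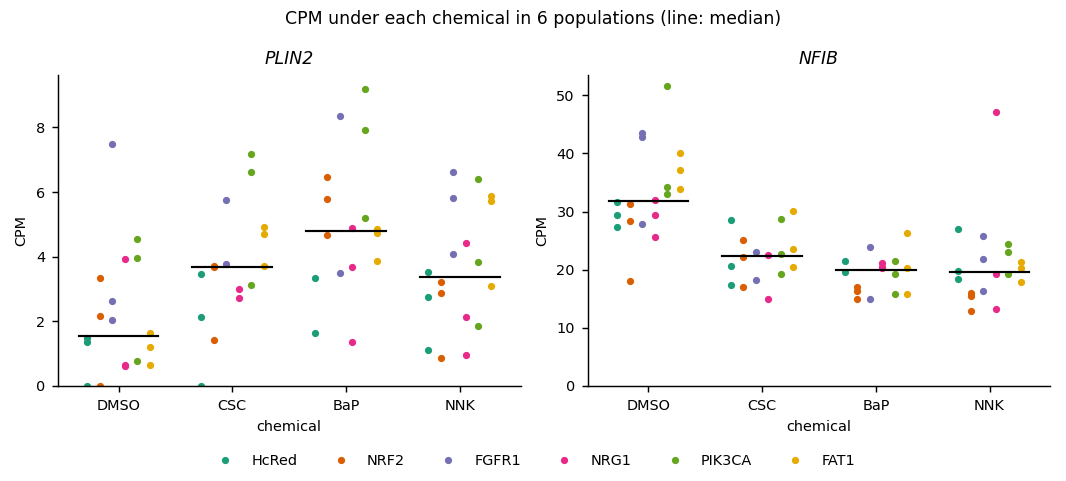
CPM (vertical axis, from 0) of PLIN2 and NFIB under each chemical (horizontal axis) in the samples of 6 populations (colour), with lines at the medians over samples. Medians of PLIN2 are 1.55 CPM under DMSO and 4.80 under BaP, and those of NFIB 31.9 and 19.9.

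The promoters of PLIN2 and NFIB are shown because these genes were called under all 3 chemicals, NNK included. BaP and CSC hold ligands of the aryl hydrocarbon receptor (AHR), which binds DNA at a core of GCGTG, searched here on both strands. Whether AHR had a part in these differences was not tested. RefSeq lists 1 promoter window for PLIN2 and 10 for NFIB, each from 250 bases before to 50 after a transcription start (GRCh38.p14). The PLIN2 window (chr9:19127443-19127742, minus strand) held the core at 2 places, at positions -85 and -3, with the start base as 0. Of the 10 NFIB windows 3 held it, and the one with most matches (chr9:14314092-14314391, minus strand) had 3, at -229, -132 and 9. It overlaps the window chr9:14313997-14314296, whose 2 matches are at the same sites. Capitals mark the core on either strand, and the sequences read 5′ to 3′ along the gene.
PLIN2: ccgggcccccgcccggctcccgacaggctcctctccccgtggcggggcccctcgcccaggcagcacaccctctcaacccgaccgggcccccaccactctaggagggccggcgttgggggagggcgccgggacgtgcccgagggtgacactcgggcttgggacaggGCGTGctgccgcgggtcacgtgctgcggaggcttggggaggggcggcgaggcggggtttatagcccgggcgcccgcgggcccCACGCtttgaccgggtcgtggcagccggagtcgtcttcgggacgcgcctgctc
NFIB: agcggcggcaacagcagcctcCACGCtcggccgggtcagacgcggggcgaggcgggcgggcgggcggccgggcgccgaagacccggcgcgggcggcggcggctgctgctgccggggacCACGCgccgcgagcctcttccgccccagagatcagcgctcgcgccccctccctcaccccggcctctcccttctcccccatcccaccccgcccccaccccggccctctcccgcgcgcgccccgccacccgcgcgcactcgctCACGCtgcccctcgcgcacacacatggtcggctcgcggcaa
The core is common. It was found in 36.5% of the 35116 promoter windows of this table and in 29 of the 74 windows of the listed genes. A match describes the letters only, and binding was not measured.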

How the data were processed

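The authors deposited a table of 3′DGE counts, in which reads with the same UMI and well barcode were counted once per gene after alignment with BWA 0.7.10 to hg19 RefSeq transcripts. Gene counts of 95 wells and 23895 symbols were used as deposited. Of the 95 wells, 13 had 2-digit numbers and were summed within a group by first digit into 6 samples, giving 88 samples, and no wells held identical values. Genes with a mean count over 1 per well were tested (11365). Counts were scaled by TMM and fitted with limma-voom (limma 3.58.1, R 4.3.3) in 1 model of 32 groups with 56 residual degrees of freedom. P-values were two-sided, adjusted over all genes by Benjamini-Hochberg, and called at 0.05. Means of log2 CPM used a prior count of 2. edgeR 4.0.16 (quasi-likelihood) and DESeq2 1.42.0 were alternatives, and the code was tested on simulated data. Further alternatives were other size factors, no filter, fits of only the groups compared, other handling of 2-digit wells, a replicate block and leaving out each sample.

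Gene positions came from GENCODE v44lift37 (hg19), which placed 93.5% of symbols, 1525 of them through RefSeq synonyms. Promoters came from RefSeq (GRCh38.p14). Sample values are printed for the 5 lowest and 3 highest genes of CDKN2A against GFP cells, the nearest gene on each side of CDKN2A, and up to 3 genes in each direction per chemical. TOMM5 was added after its values were seen. The genes, lists and tests were chosen with earlier results of these data known.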

Additional observations from a re-analysis of the deposited data

How the results depend on the processing

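Of 1194 values recomputed under alternatives, 1048 kept their direction and side of the threshold or moved by less than the limits set. Of the rest, 123 were weaker, 12 stronger, 10 moved and 1 reversed. Weaker and stronger stand for a gene's call lost or gained, or for a count of calls that fell or rose beyond its limit. The 10 that moved were segment medians. The causes of these changes were not tested. Every well as a separate sample changed no result by these rules. With only wells with 1-digit numbers, which leaves no CDKN2A sample under CSC, the genes called were 19 for CDKN2A against GFP cells, 6 for the same pair under NNK, 14 for CDKN2A against HcRed cells, 0 each for NRF2, NRG1 and PIK3CA cells and 2 for CSC, the telomeric median was -0.47, and TESK1 reversed to -0.33. The calls of SHB, POLR1E, KLHL9 and APTX against GFP cells and of B4GALT1 and MELK under CSC were also lost there. In fits of only the groups compared, 3 genes were called for NRF2, 1 for FGFR1 and 0 for NRG1 cells. With no filter on low counts there were 1 for PIK3CA cells, 2 for CSC and 4 for NNK. DESeq2 called 0 each for NRF2, NRG1 and PIK3CA cells, 2 for CSC and 1 for NNK. Without NRG1 NNK replicate 2 there were 0 for NRG1 cells and 13 for NNK, and over all 8 populations 7 for NNK.

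Leaving out 1 sample at a time gave 26 to 31 calls for CDKN2A against GFP cells over 3 chemicals, 14 to 16 under CSC, 5 to 14 under BaP and 6 to 18 under NNK. It gave 23 to 30 for CDKN2A against HcRed, 8 to 11 for GFP against HcRed, 8 to 10 for FAT1 against GFP, 0 to 2 for NRF2, 0 to 1 for FGFR1, 0 to 1 for NRG1 and 0 to 3 for PIK3CA cells. For the chemicals the ranges were 2 to 4 for CSC, 6 to 8 for BaP and 1 to 13 for NNK. Segment medians ran from -0.69 to -0.46 (telomeric), -0.80 to -0.56 (middle) and -0.85 to -0.69 (centromeric). Where a group was left with 1 sample, it was assumed to vary like the others. With the replicate number as a block, 32 genes were called for CDKN2A against GFP cells, and no count of calls moved by more than 1.5 times. Deviations of same-numbered samples were compared between CDKN2A and GFP cells and between FAT1 and GFP cells, and correlated at -0.02 to 0.04. Other pairs of populations were not checked. Genes with few counts limit what can be seen: of the 25 with a mean count under 20, 11 were called.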
